A study of Mus musculus with 8 samples.

Results

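The blood endothelial genes described here are 10 genes by which the cells lining blood vessels are recognised: Pecam1, Cdh5, Kdr, Flt1, Tek, Tie1, Emcn, Eng, Plvap and Cldn5. They were chosen by name, and all 10 were found among the 19129 genes of the expression table and passed the submitters' filter. RNA sequencing was carried out on isografts of mouse pancreatic tumours, which grow from material transplanted between mice of like strain, with 8 libraries from 8 mice. Libraries of 4 mice carry the label MEKi. These mice had 7 days of trametinib, which blocks the ERK-activating kinases MEK1 and MEK2. The other 4 libraries carry the label control. The sources used here name neither the strain, age and tumour genotype of the mice nor the treatment of the control mice.

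Blood vessel endothelium is held together by adhesion proteins such as PECAM1, VE-cadherin and claudin 5, and its growth is steered by receptor tyrosine kinases. VEGF binds VEGFR2, the main growth receptor, and VEGFR1, which takes up ligand with weak signalling, while the angiopoietins act through TIE2 with its partner TIE1. VEGF receptors signal in part through the RAF, MEK and ERK kinases, and the capillaries of the pancreas are mostly fenestrated. ETS factors such as ERG, which bind DNA around the core GGAA, are regulators of many endothelial genes.

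Expression is given on the deposited variance-stabilised log2 scale, on which 5.12 stands for 0 reads. Differences on it are near log2 fold changes where reads are many and understate them where reads are few. Reads in genes numbered 20090101 to 38569550 per library. Genes driven by ERK did not follow the drug label. Dusp6, which encodes an ERK phosphatase induced by ERK itself, had 8.88, 12.12, 12.20 and 11.01 in MEKi replicates 1 to 4, against 12.19, 12.14, 9.31 and 9.24 in control replicates 1 to 4. The feedback inhibitor gene Spry4 had 7.25, 9.88, 9.43 and 9.04 in MEKi replicates 1 to 4, against 9.82, 9.88, 7.66 and 7.20 in control replicates 1 to 4. High and low libraries were thus found under both labels, with MEKi 1, control 3 and control 4 lowest for both genes. MEKi and control below therefore name the labels of the libraries. Acinar cell RNA was uneven as well, with the 14 acinar genes holding 0.00146% to 0.293% of the reads in MEKi libraries and 0.0256% to 13.4% in control libraries, the most in control 3 and control 2. In whole tumour pieces, fewer cells of a type and less RNA per cell cannot be told apart.

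Promoters of 7 of the 10 genes (Eng, Emcn, Tek, Tie1, Kdr, Flt1 and Cldn5) were matched by symbol in RefSeq for GRCm38.p6. The 250 bases before the RefSeq start of 3 of them are shown because they span the range of GGAA matches in this set. They are Tie1 with 7 matches (chr4:118489850-118490099, minus strand), Emcn with 4 (chr3:137340828-137341077, plus strand) and Cldn5 with 0 (chr16:18776597-18776846, plus strand). By GENCODE coordinates (chromosome 4, 118471191 to 118490061), most of the Tie1 stretch and most of its matches lie within the gene. Capitals mark GGAA or its reverse complement TTCC, and each line runs 5′ to 3′ in the direction of the gene.
Tie1: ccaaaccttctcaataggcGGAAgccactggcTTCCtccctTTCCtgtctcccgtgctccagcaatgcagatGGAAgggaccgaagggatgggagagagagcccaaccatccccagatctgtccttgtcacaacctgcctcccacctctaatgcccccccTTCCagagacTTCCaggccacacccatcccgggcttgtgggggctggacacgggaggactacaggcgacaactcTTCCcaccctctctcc
Emcn: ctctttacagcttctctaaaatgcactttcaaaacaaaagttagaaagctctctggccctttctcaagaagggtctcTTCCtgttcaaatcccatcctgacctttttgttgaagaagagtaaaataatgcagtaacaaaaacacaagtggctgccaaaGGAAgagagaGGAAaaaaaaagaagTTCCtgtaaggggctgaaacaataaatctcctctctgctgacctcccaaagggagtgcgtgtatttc
Cldn5: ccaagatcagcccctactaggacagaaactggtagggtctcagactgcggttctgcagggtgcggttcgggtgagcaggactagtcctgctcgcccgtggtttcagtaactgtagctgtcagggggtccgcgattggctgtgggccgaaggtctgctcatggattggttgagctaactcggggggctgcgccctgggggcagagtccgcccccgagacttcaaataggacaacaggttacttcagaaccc
GGAA on either strand was found in 6 of the 7 promoters, with a median of 4 matches, against 93.5% of 32841 RefSeq promoters with 250 called bases and a median of 3 matches. The longer motif AACAGGAA, which contains GGAA, was found on either strand in 1 of the 7, that of Emcn, against 2.25% of all. The motif AGATAA on either strand, known for factors of the GATA family and not contained in the other motifs, was found in 0 of the 7 and in 9.99% of all. These are matches of letters in a short window and no measure of binding.

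The blood endothelial genes did not separate the labels. By limma, 0 of the 10 had an adjusted p under 0.05, where 0.00523% of all genes tested did, and 0 of 10 had an unadjusted p under 0.05, where 1.77% of all genes did (1.3% lower and 0.465% higher under the MEKi label). For 0 of 10 did all 4 MEKi libraries lie below all 4 control libraries, against 0.701% of all genes, and for 0 of 10 above, against 0.565%. Means were lower under the MEKi label for 8 of 10 genes, where 48.4% of all genes had lower means. The median difference was -0.18 for the 10 genes and 0.0055 for all genes. The mean over the 10 genes was 9.01, 9.65, 9.59 and 9.18 in MEKi replicates 1 to 4, against 9.96, 10.06, 9.22 and 8.91 in control replicates 1 to 4. Control 2 and control 1 stood highest, followed by MEKi 2 and MEKi 3, and the other 4 libraries of both labels lay together at the low end. The group means were 9.36 ± 0.31 and 9.54 ± 0.56 (SD, n = 4 each, MEKi and control), a difference of -0.18. Without control 2 the mean difference was -0.0021 and 4 of 10 genes had lower means, without control 1 it was -0.0345, without MEKi 1 -0.061, without control 4 -0.39, without control 3 -0.28 and without MEKi 2 -0.28.

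**Figure D1:**
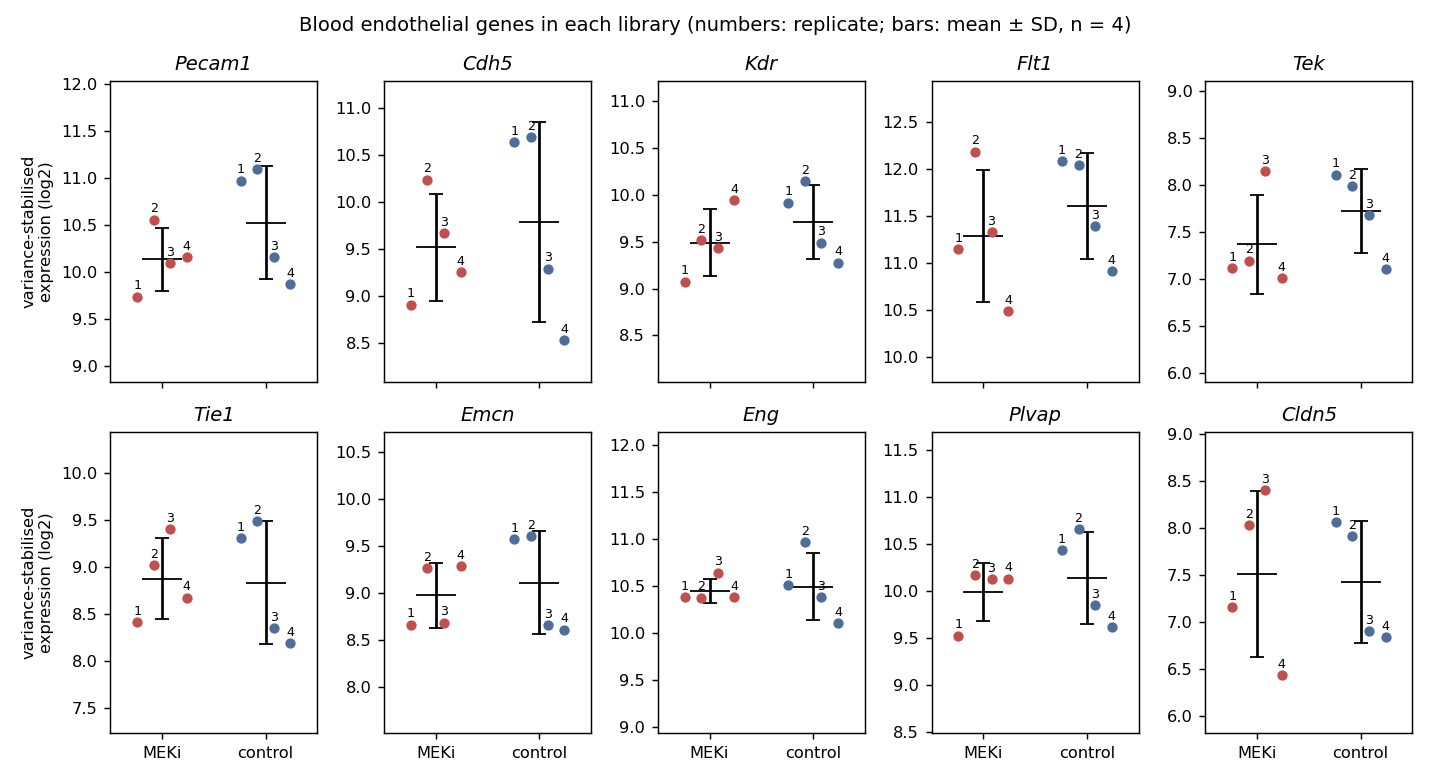
Variance-stabilised expression (log2, y axis, spanning 3.2 units in every panel) of the 10 blood endothelial genes in the 4 MEKi libraries (left, red) and the 4 control libraries (right, blue), with replicate numbers at the points and the mean ± SD. The groups overlap in every panel, and control 1 and control 2 lie among the 4 highest libraries for all 10 genes.

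Of the adhesion and junction genes, Cdh5 and Cldn5 varied most between libraries. Pecam1 (chromosome 11, 106654217 to 106750628; all coordinates are GENCODE on GRCm38), which encodes the adhesion protein CD31, had 9.74, 10.56, 10.09 and 10.15 in MEKi replicates 1 to 4, against 10.97, 11.09, 10.15 and 9.87 in control replicates 1 to 4. Control 1 and control 2 lay above every MEKi library, while control 3 and control 4 lay among the MEKi values. The difference was -0.39 (SE 0.28, 95% interval -1.02 to 0.25, limma adjusted p = 0.9996). Without control 2 it was -0.20 and without control 4 -0.60. Pecam1 is also transcribed by platelets and some white blood cells. The 9 genes of the blood cell and platelet list had means of 8.62 to 9.28 in MEKi and 8.76 to 9.08 in control libraries, with the pan-leukocyte gene Ptprc, chosen after its values were seen, at 12.04, 11.46, 12.92 and 11.82 in MEKi replicates 1 to 4, against 11.92, 12.09, 11.75 and 12.30 in control replicates 1 to 4. Their part in the Pecam1 values was not tested.

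Cdh5 (chromosome 8, 104101625 to 104144511), which encodes VE-cadherin, the adhesion molecule of endothelial junctions, had 8.91, 10.24, 9.66 and 9.26 in MEKi replicates 1 to 4, against 10.63, 10.69, 9.29 and 8.53 in control replicates 1 to 4. Control libraries held both the highest and the lowest values, and the 4 MEKi libraries lay between them. The difference was -0.27 (SE 0.48, 95% interval -1.36 to 0.82, limma adjusted p = 0.9996). After division by the authors' size factors the highest library held 5.22 times the reads of the lowest. Cldn5 (chromosome 16, 18776847 to 18778262), which encodes the tight junction protein claudin 5, had 7.16, 8.03, 8.40 and 6.44 in MEKi replicates 1 to 4, against 8.06, 7.91, 6.90 and 6.84 in control replicates 1 to 4. Its adjusted reads spread most of all 10 genes, by 8.73 times between the highest and lowest library, and both of these, MEKi 3 and MEKi 4, carry the MEKi label. The difference was 0.080 (SE 0.45, 95% interval -0.93 to 1.09, limma adjusted p = 0.9996). It was measured with 44 to 334 reads per library, so that its low values rest on few reads.

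The VEGF receptor genes had lower means under the MEKi label within wide errors. Kdr (chromosome 5, 75932827 to 75978458), which encodes VEGFR2, had 9.07, 9.51, 9.43 and 9.94 in MEKi replicates 1 to 4, against 9.91, 10.14, 9.49 and 9.28 in control replicates 1 to 4. MEKi 4 was the highest MEKi library and reached the level of control 1, while MEKi 1 was the lowest of all. Its difference was -0.22 (SE 0.23, 95% interval -0.72 to 0.29, limma adjusted p = 0.9996), and it ran from -0.36 without MEKi 4 to -0.070 without control 2. Flt1 (chromosome 5, 147561604 to 147726011), which encodes VEGFR1, had 11.15, 12.19, 11.34 and 10.49 in MEKi replicates 1 to 4, against 12.09, 12.04, 11.40 and 10.91 in control replicates 1 to 4. Here MEKi 2 was the highest and MEKi 4 the lowest of all 8 libraries, and the difference was -0.32 (SE 0.36, 95% interval -1.13 to 0.49, limma adjusted p = 0.9996). It was -0.62 without MEKi 2 and -0.054 without MEKi 4. The log2 value of Flt1 minus that of Kdr, not adjusted for gene length, was 2.07, 2.68, 1.90 and 0.55 in MEKi replicates 1 to 4 and 2.18, 1.90, 1.91 and 1.64 in control replicates 1 to 4. MEKi 4 had by far the smallest distance, so that both receptors did not move together in that tumour.

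The angiopoietin receptor pair differed in which library stood out. Tek (chromosome 4, 94739289 to 94874976), which encodes TIE2, had 7.12, 7.19, 8.14 and 7.01 in MEKi replicates 1 to 4, against 8.11, 7.99, 7.68 and 7.11 in control replicates 1 to 4. MEKi 3 was the highest library of all, while the other MEKi libraries lay near control 4, below the other control libraries. The difference was -0.35 (SE 0.30, 95% interval -1.02 to 0.31, limma adjusted p = 0.9996). Tek was measured with 64 to 267 reads per library, so that its low values rest on few reads. Tie1 (chromosome 4, 118471191 to 118490061), the partner receptor, had 8.41, 9.02, 9.40 and 8.68 in MEKi replicates 1 to 4, against 9.31, 9.49, 8.36 and 8.19 in control replicates 1 to 4. Values of both labels were interleaved, with control 2 and MEKi 3 highest and control 4 lowest. The Tie1 difference was 0.040 (SE 0.33, 95% interval -0.69 to 0.77, limma adjusted p = 0.9996). The log2 value of Tie1 minus that of Tek, not adjusted for gene length, was 1.29, 1.83, 1.26 and 1.67 in MEKi replicates 1 to 4 and 1.205, 1.502, 0.68 and 1.08 in control replicates 1 to 4. Without MEKi 3 the Tek difference was -0.61, against -0.35 with all libraries, with an adjusted p of 0.9997 by limma.

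The surface and diaphragm genes spread less between libraries than the adhesion genes. Plvap (chromosome 8, 71497765 to 71511752), which encodes the protein of the diaphragms that span endothelial fenestrae, had 9.53, 10.17, 10.12 and 10.13 in MEKi replicates 1 to 4, against 10.44, 10.66, 9.85 and 9.62 in control replicates 1 to 4. MEKi 2, 3 and 4 lay between the high and the low control libraries and MEKi 1 below all of them, a difference of -0.15 (SE 0.24, 95% interval -0.70 to 0.39, limma adjusted p = 0.9996). Emcn (chromosome 3, 137341067 to 137432185), which encodes the sialomucin endomucin of capillaries and veins, had 8.67, 9.27, 8.69 and 9.29 in MEKi replicates 1 to 4, against 9.57, 9.61, 8.66 and 8.61 in control replicates 1 to 4. The Emcn values fell into 4 higher libraries, 2 of each label, and 4 lower ones. Its difference was -0.14 (SE 0.28, 95% interval -0.75 to 0.48, limma adjusted p = 0.9996). Eng (chromosome 2, 32646595 to 32682669), which encodes the TGF-beta and BMP co-receptor endoglin, had 10.38, 10.37, 10.64 and 10.38 in MEKi replicates 1 to 4, against 10.51, 10.96, 10.38 and 10.10 in control replicates 1 to 4. It was the steadiest of the 10, with 1.87 times as many size-factor-adjusted reads in the highest as in the lowest library, and MEKi 1, 2 and 4 were nearly equal. The difference was -0.047 (SE 0.17, 95% interval -0.43 to 0.33, limma adjusted p = 0.9996). In the annotation Eng overlaps 3 genes on its own strand and 1 on the other, among them Fpgs, while Plvap overlaps Gtpbp3 and Cdh5 overlaps Gm29682, both on the other strand. Libraries were made with a stranded kit, but whether counting used the strand is not stated, so reads in the overlaps are uncertain.

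**Figure D2:**
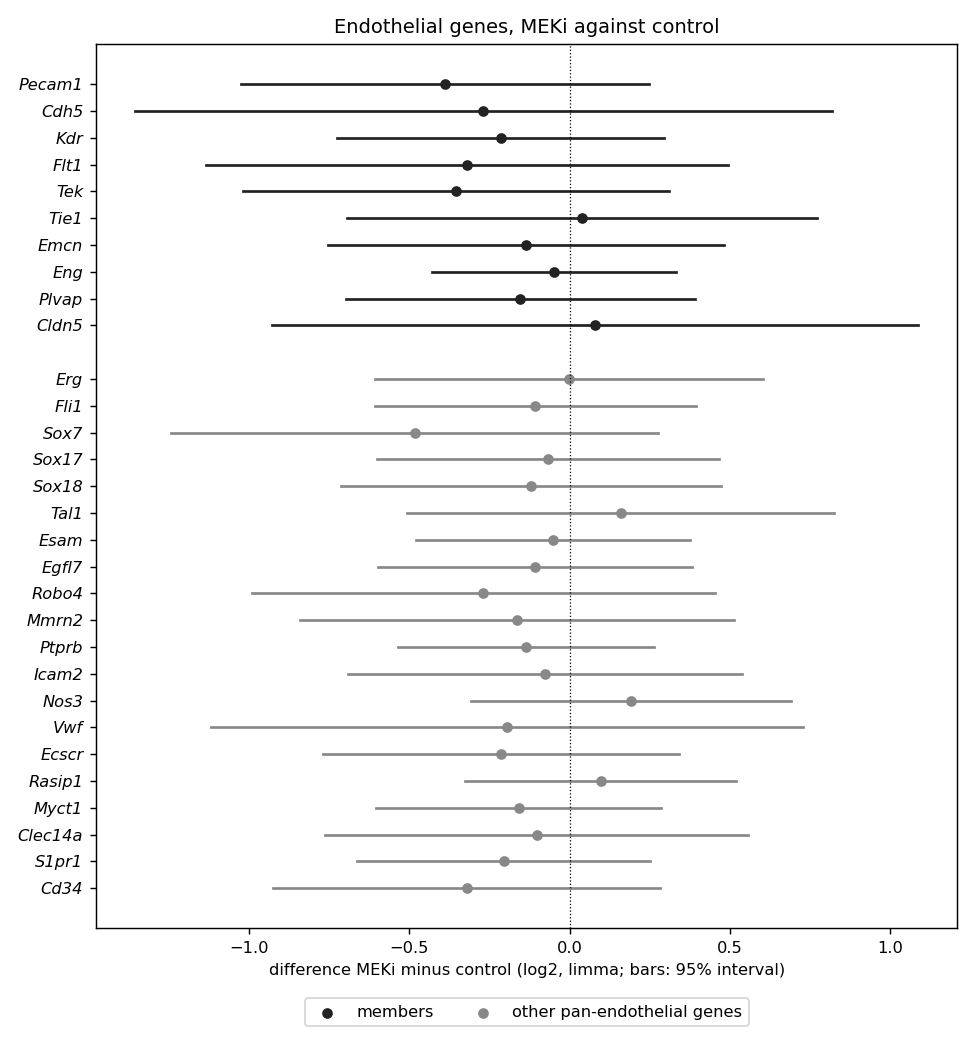
Difference between MEKi and control libraries (x axis, log2, limma) for the 10 blood endothelial genes (black) and 20 other pan-endothelial genes (grey), with 95% intervals as bars. Every interval spans 0; the 10 genes lie between -0.39 and 0.080.

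Levels of the genes relative to each other are given as size-factor-adjusted reads per kilobase of GENCODE exon, as mean ± SD over the 8 libraries. Plvap was highest at 522 ± 149 and exceeded Eng, at 337 ± 65.9, in 8 of 8 libraries. Eng exceeded Flt1 (219 ± 90.6) in 7 of 8. Flt1, Pecam1 (207 ± 79.6) and Cdh5 (202 ± 119) did not differ beyond their spread, with Flt1 above Pecam1 in 5 and Pecam1 above Cdh5 in 4 of 8 libraries. A lower group held Cldn5 (95.2 ± 62.3), Emcn (89.4 ± 30.7), Tie1 (86.2 ± 34.5) and Kdr (80.7 ± 22.6), whose neighbours kept their order in 3 to 6 of 8 libraries. Tek was lowest at 28.4 ± 13.7 and lay below Kdr in 8 of 8. The order rests on the exon lengths of all annotated isoforms together, which exceed the length of the main transcript in some genes.

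The spread of these genes lay mostly between tumours of 1 label rather than between labels, as it did for genes in general. Of the variation of a gene over the 8 libraries, the part between the labels had a median of 3.85% for the 10 genes and 6.34% for all genes. The SD over the 8 libraries had a median of 0.49 for the 10 genes and 0.21 for all genes. Control 1 and control 2 were both among the 4 highest libraries for 10 of 10 genes, against 25.7% of all genes. MEKi 1 and control 4 were both among the 4 lowest for 10 of 10, against 30.3% of all genes. They were also the closest pair of libraries in their reads over genes. MEKi 2 was among the 4 highest for 8 genes, MEKi 3 for 5, control 3 for 4 and MEKi 4 for 3.

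The ERK output list had the same 4 highest libraries. Its 20 genes averaged 9.08, 10.70, 10.43 and 9.72 in MEKi replicates 1 to 4, against 10.62, 10.61, 9.29 and 9.08 in control replicates 1 to 4. The 4 libraries with the highest ERK output means, MEKi 2, MEKi 3, control 1 and control 2, were the 4 with the highest endothelial means (9.59 to 10.06), and the other 4 had endothelial means of 8.91 to 9.22. The same 4 libraries were highest for the arterial list (8.32 to 8.50, others 8.05 to 8.25). They were also highest for the blood cell and platelet list (8.83 to 9.28, others 8.62 to 8.80). The lists of other cell types and vessel subtypes had other libraries among their highest. The share of all genes with these 4 highest libraries was not computed. As the ERK output means fall apart into a high cluster and a lower one, no correlation is given. The mean difference of the 10 genes, -0.18 without covariates, was -0.22 with the ERK output mean as a covariate, which was chosen after seeing the data, and -0.18 with the acinar mean. With the mean of the second pan-endothelial list as a covariate it was 0.0022. That covariate is itself a mean of endothelial genes with the same 4 highest libraries, so a small difference was largely built in. Epha4 (9.17, 10.33, 9.87 and 9.57 in MEKi replicates 1 to 4, against 9.69, 9.24, 9.25 and 9.19 in control replicates 1 to 4) and Etv1 (7.80, 7.88, 8.14 and 7.36 in MEKi replicates 1 to 4, against 8.27, 8.80, 8.26 and 7.49 in control replicates 1 to 4), the 2 genes of the ERK output list with the smallest p, differed by 0.39 (SE 0.23) and -0.41 (SE 0.27). In that list 0 of 20 genes were called, with 0 at an unadjusted p under 0.05.

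**Figure D3:**
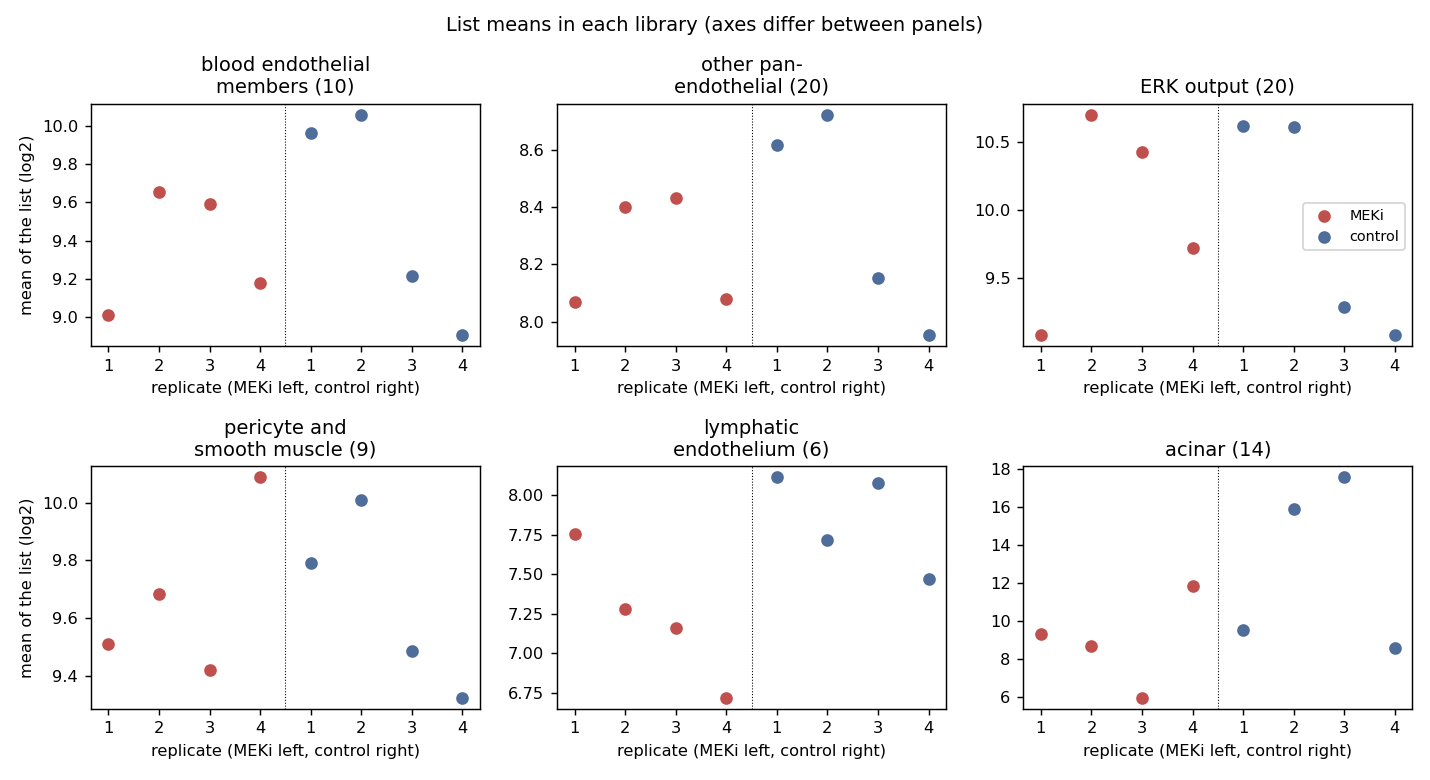
Mean variance-stabilised expression (log2, y axis, scaled separately per panel) of 6 gene lists in each library, with MEKi replicates 1 to 4 left (red) and control replicates 1 to 4 right (blue). Control 1, control 2, MEKi 2 and MEKi 3 are the 4 highest libraries for the blood endothelial, other pan-endothelial and ERK output lists, while acinar means peak in control 3 and control 2.

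Other endothelial genes had the same 4 highest libraries on average. The 20 genes of a second pan-endothelial list averaged 8.07, 8.40, 8.43 and 8.08 in MEKi replicates 1 to 4, against 8.62, 8.72, 8.15 and 7.95 in control replicates 1 to 4. Limma called 0 of 20, with 0 at an unadjusted p under 0.05, 17 of 20 had lower means under the MEKi label, and the median difference was -0.11. Control 1 and control 2 were both among the 4 highest libraries for 18 of these 20. The 2 genes with the smallest p were Sox7, an endothelial transcription factor gene, with a difference of -0.48 (SE 0.34), and Cd34, a sialomucin gene of capillaries and stem cells, with -0.32 (SE 0.27). Cd34 had 9.60, 9.88, 9.69 and 9.96 in MEKi replicates 1 to 4, against 10.52, 10.69, 9.87 and 9.33 in control replicates 1 to 4, again highest in control 1 and control 2.

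The profiles closest to the mean profile of the 10 genes were sought among the other 19119 genes, by the root mean square difference of values centred on each gene's mean over the 8 libraries. The 8 closest were Snai1 (0.070), Arhgef15 (0.084), Tmem88 (0.088), Mmrn2 (0.095), Adcy4 (0.10), Erg (0.10), Hif1a (0.10) and the long noncoding RNA gene Gm6634 (0.10), in log2 units. Mmrn2 and Erg, an endothelial matrix protein gene and the ETS factor gene, are members of the second pan-endothelial list. Its 20 genes were spread widely by this measure, with examples chosen after their values were seen: Sox18 at rank 19, Robo4 at rank 64, Vwf at rank 6458, Sox7 at rank 9107 and Clec14a at rank 17905 of 19119. Erg had 7.50, 8.06, 8.03 and 7.60 in MEKi replicates 1 to 4, against 8.21, 8.32, 7.39 and 7.27 in control replicates 1 to 4. Snai1, known for repressing E-cadherin, had 6.50, 7.07, 7.01 and 6.61 in MEKi replicates 1 to 4, against 7.33, 7.64, 6.75 and 6.44 in control replicates 1 to 4, at low levels. Hif1a, which encodes the oxygen-regulated subunit of HIF-1, had 11.16, 11.86, 11.65 and 11.40 in MEKi replicates 1 to 4, against 12.04, 11.94, 11.38 and 11.05 in control replicates 1 to 4. Both have control 1, control 2, MEKi 2 and MEKi 3 as their highest libraries. As both were picked for closeness to the mean profile, which has the same highest libraries, this was largely built in. Among the 10 genes themselves the distance ran from 0.15 for Plvap and 0.17 for Pecam1 to 0.43 for Cldn5.

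Departures from this shared movement were largest in MEKi 4 and MEKi 3. After taking away each gene's mean and each library's mean shift, the root mean square departure of the 10 genes was 0.17, 0.32, 0.40 and 0.44 in MEKi replicates 1 to 4 and 0.23, 0.17, 0.21 and 0.22 in control replicates 1 to 4. In MEKi 4, Kdr lay 0.61, Emcn 0.52 and Plvap 0.34 above the shared movement, with Cldn5 at -0.76 and Flt1 at -0.69. In MEKi 3, Cldn5 lay 0.79, Tek 0.46 and Tie1 0.40 above it, with Emcn at -0.50 and Pecam1 at -0.38. In MEKi 2, Flt1 lay 0.53 above it, with Tek at -0.56. Among control libraries the largest departures were of Cdh5, at 0.47 in control 1 and -0.58 in control 4, and of Eng, at -0.47 in control 1. These departures were not tested.

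**Figure D4:**
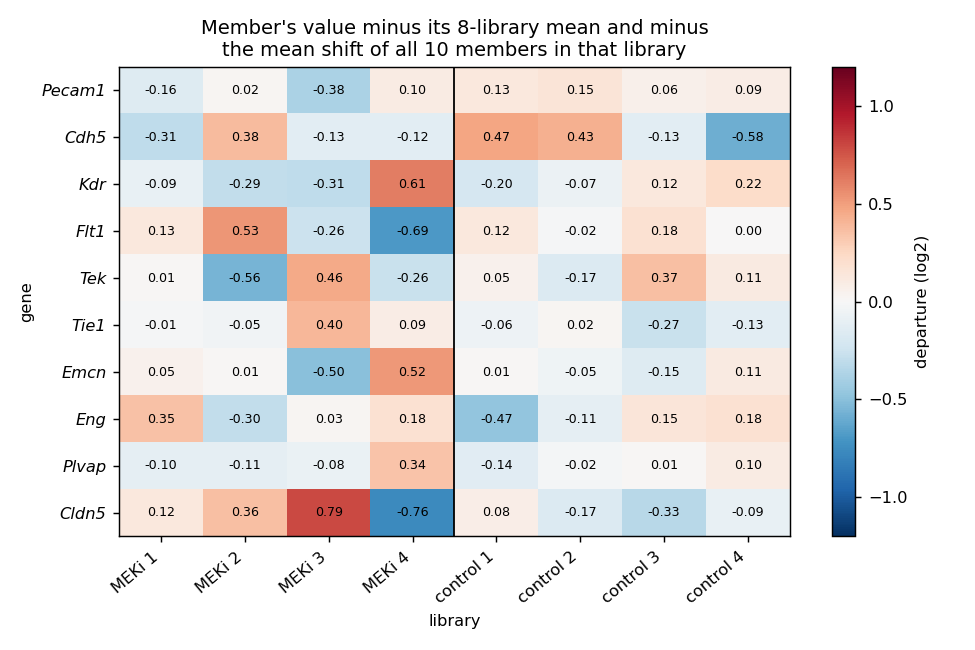
Departure (log2, colour and printed value) of each of the 10 genes (rows) from its own mean over 8 libraries and from the mean shift of all 10 genes in a library (columns; MEKi left, control right). Strong colours gather in MEKi 2, MEKi 3 and MEKi 4, such as 0.61 for Kdr and -0.76 for Cldn5 in MEKi 4.

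The ligands and co-receptors of these receptors were measured for 14 of 16 listed genes. Limma called 0 of 14, with 0 at an unadjusted p under 0.05; 11 had lower means under the MEKi label, and the median difference was -0.21. Vegfa, the main VEGF ligand gene, had 13.82, 14.32, 12.93 and 13.65 in MEKi replicates 1 to 4, against 14.29, 13.999, 13.90 and 13.52 in control replicates 1 to 4. MEKi 3 stood lowest and MEKi 2 highest, and the difference was -0.24 (SE 0.27). Pgf, which encodes a ligand of VEGFR1, had 8.44, 9.04, 7.39 and 7.62 in MEKi replicates 1 to 4, against 8.94, 8.97, 8.65 and 8.09 in control replicates 1 to 4, with MEKi 3 and MEKi 4 lowest and a difference of -0.54 (SE 0.36). Vegfb, another ligand of VEGFR1, was steady (8.80 ± 0.13 in MEKi and 8.72 ± 0.053 in control libraries, SD, n = 4 each).

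The angiopoietin genes differed among the MEKi libraries. Angpt1, which encodes the activating ligand of TIE2, had 7.48, 7.34, 9.13 and 7.98 in MEKi replicates 1 to 4, against 7.94, 8.28, 8.12 and 7.97 in control replicates 1 to 4. It was highest in MEKi 3, the library with the highest Tek (8.14). Tek was nearly as high in control 1 (8.11), where Angpt1 was 7.94. Angpt2, whose product acts on TIE2 mostly as an antagonist and is made by sprouting endothelium, had 8.36, 9.96, 7.74 and 9.03 in MEKi replicates 1 to 4, against 9.49, 9.69, 8.70 and 8.05 in control replicates 1 to 4. It was highest in MEKi 2 and lowest in MEKi 3. The differences were -0.10 (SE 0.35) for Angpt1 and -0.21 (SE 0.49) for Angpt2, and Angpt4 differed by -0.050 (SE 0.18). Apln, which encodes the sprouting-associated ligand apelin, had 7.97, 10.21, 7.42 and 8.19 in MEKi replicates 1 to 4, against 9.39, 10.30, 8.70 and 7.63 in control replicates 1 to 4, highest in control 2 and MEKi 2, and its difference was -0.56 (SE 0.66), or -1.14 without MEKi 2 and -0.13 without control 2. Its receptor gene Aplnr had 7.97, 7.90, 8.49 and 8.03 in MEKi replicates 1 to 4, against 9.23, 9.29, 8.03 and 7.55 in control replicates 1 to 4, with control 1 and control 2 above all others and a difference of -0.43 (SE 0.38).

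The VEGF co-receptor genes Nrp1 and Nrp2 differed by 0.11 (SE 0.25) and 0.011 (SE 0.16), and MEKi 4 stood highest for Nrp1 at 11.75, against 10.49 to 11.05 in the other 7 libraries. Acvrl1, which encodes the endothelial BMP receptor ALK1 that works with endoglin, differed by -0.21 (SE 0.17). Genes of the lymphatic growth axis differed by -0.34 (SE 0.33) for Vegfc, -0.11 (SE 0.21) for Vegfd and -0.35 (SE 0.26) for Flt4, which encodes VEGFR3.

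Genes of vessel subtypes were not called in any list, with 0 of 10 arterial, 0 of 6 venous and activation, 0 of 10 tip cell and sprouting and 0 of 10 capillary and barrier genes by limma. An unadjusted p under 0.05 was found for 0, 1, 0 and 1 of them in the same order, Selp and Car4. Which cells of the tumour pieces made the transcripts of these lists was not tested. The tip cell list averaged 9.20, 10.26, 9.07 and 9.39 in MEKi replicates 1 to 4, against 10.09, 10.28, 9.43 and 9.12 in control replicates 1 to 4. MEKi 3 was the lowest library, although it was among the 4 highest for the endothelial mean. Angpt2, Apln and Pgf of this list are also in the ligand list and Dll4 in the arterial list, so the lists are not separate evidence. Esm1, a marker of tip cells, had 8.52, 10.18, 7.63 and 9.79 in MEKi replicates 1 to 4, against 9.68, 9.76, 9.19 and 8.79 in control replicates 1 to 4; it was chosen after its values were seen. Kcne3 differed by -0.59 (SE 0.33) and Pgf by -0.54 (SE 0.36), the smallest p of the tip cell list. The hypoxia list of 12 genes averaged 11.19, 11.17, 10.23 and 11.02 in MEKi replicates 1 to 4, against 11.25, 11.23, 11.15 and 10.85 in control replicates 1 to 4, also lowest in MEKi 3, and 11 of 12 had lower means under the MEKi label with 0 called. Its genes with the smallest p were Adm, which encodes adrenomedullin, at -0.77 (SE 0.40), and the glycolytic regulator gene Pfkfb3, at -0.26 (SE 0.16). Adm was 6.50 in MEKi 3 and 8.12 to 9.05 elsewhere. The hypoxia list shares Vegfa with the ligand list and Slc2a1 with the capillary and barrier list.

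Selp, which encodes the P-selectin of activated endothelium and platelets, had the smallest p of the venous and activation list. It had 6.16, 6.34, 5.81 and 5.96 in MEKi replicates 1 to 4, against 7.09, 7.23, 7.30 and 6.26 in control replicates 1 to 4. Control 1, 2 and 3 lay above all MEKi libraries and control 4 among them, and the difference was -0.90 (SE 0.24) with a limma adjusted p of 0.9996. It had as few as 10 reads in a library. Ackr1, a chemokine receptor gene of venules, differed by -0.34 (SE 0.25) and had 0 reads in MEKi 2. Car4, which encodes a carbonic anhydrase of capillary surfaces, had 6.65, 6.40, 5.96 and 5.73 in MEKi replicates 1 to 4, against 7.30, 7.25, 6.94 and 6.14 in control replicates 1 to 4 and differed by -0.72 (SE 0.29) (limma adjusted p = 0.9996), and the junction gene Ocln, which epithelial cells share, by -0.37 (SE 0.21). The arterial list averaged 8.13 to 8.32 in MEKi and 8.05 to 8.50 in control libraries. Its genes with the smallest p were the Notch target gene Hey2, at 0.38 (SE 0.17), and the arterial connexin gene Gja4, at -0.27 (SE 0.15). Hey2 was measured with only 6 to 70 reads per library. Dll4, the Notch ligand gene of tip and arterial cells, had 7.26, 8.91, 8.22 and 8.82 in MEKi replicates 1 to 4, against 9.19, 9.17, 7.69 and 7.31 in control replicates 1 to 4, with MEKi 1 and control 4 lowest; it was chosen after its values were seen.

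Markers of neighbouring cell types were set beside the endothelial means. Pericyte and smooth muscle genes, 9 of 9 measured, averaged 9.51, 9.68, 9.42 and 10.09 in MEKi replicates 1 to 4, against 9.79, 10.01, 9.49 and 9.33 in control replicates 1 to 4, highest in MEKi 4 and control 2, with 0 called. Pdgfrb, the pericyte and fibroblast receptor gene, was highest in MEKi 3 at 12.08 and differed by 0.27 (SE 0.25), and Notch3 by 0.13 (SE 0.24). The lymphatic endothelial list, 6 of 7 measured, averaged 6.72 to 7.75 in MEKi and 7.47 to 8.11 in control libraries, with all 6 means lower under the MEKi label, 0 called and 2 at an unadjusted p under 0.05. Its smallest p belonged to Pdpn, at -0.76 (SE 0.31), and Lyve1, at -0.99 (SE 0.43). The defining gene Prox1, chosen after its values were seen, was detected in every library at 5.998 to 7.26 in MEKi and 6.83 to 7.74 in control libraries. In the blood cell and platelet list, the platelet genes Gp9 and Gp1ba had at most 44 and 64 reads in a library, and Gp9, chosen after its values were seen, had 0 in MEKi 2. Gp1ba and Laptm5, its genes with the smallest p, differed by 0.23 (SE 0.13) and -0.23 (SE 0.18).

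Macrophage genes, 12 of 12 measured, averaged 10.26 to 10.63 in MEKi and 10.35 to 11.22 in control libraries, with 11 of 12 means lower under the MEKi label and 0 called. Adgre1 differed by -0.42 (SE 0.21) and Mrc1 by -0.67 (SE 0.36); control 2 was highest for both. Fibroblast genes, 10 of 10 measured and all lower in mean under the MEKi label, averaged 12.55 to 13.13 in MEKi and 12.58 to 13.63 in control libraries, led by Pdgfra at -0.63 (SE 0.30) and Dcn at -0.75 (SE 0.47), with 0 called. Tumour epithelial genes averaged 12.21 to 13.18 in MEKi and 12.93 to 13.07 in control libraries, with 0 of 10 called. Their genes with the smallest p, the claudin genes Cldn4 and Cldn7, differed by -0.53 (SE 0.37) and -0.65 (SE 0.63) and were lowest in MEKi 4. All 14 acinar genes had lower means under the MEKi label, with list means of 9.32, 8.69, 5.96 and 11.83 in MEKi replicates 1 to 4, against 9.55, 15.88, 17.56 and 8.57 in control replicates 1 to 4. The protease genes Prss2 and Ctrb1 had the smallest p and differed by -4.62 (SE 2.04) and -4.58 (SE 2.09), with 0 called and 1 at an unadjusted p under 0.05. In the pericyte, blood cell, hypoxia, macrophage, fibroblast and epithelial lists 0 genes had an unadjusted p under 0.05. Control 2 was high for both acinar and endothelial genes, whereas control 3 had the most acinar RNA and a low endothelial mean. Apart from the covariate fits given above, the part of these cell types in the endothelial values was not tested.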

How the data were processed

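One library per mouse was analysed from 4 mice labelled MEKi and 4 labelled control. Per the labels' protocols, total RNA was extracted with TRIzol and columns, samples above a set RNA integrity were kept, and stranded total RNA libraries were sequenced. The submitters' processing notes name STAR 2.5.3a, DESeq2 1.18.1 and build GRCm38, without their roles. The counting step, annotation and filter are not stated. The values deposited by the authors are variance-stabilised expression on a log2 scale. Inverting the transformation from the lowest value, 5.12, gave whole reads for 100% of values (within 0.01), which were used for depth, levels per length and alternatives.

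Of 19431 rows, 32 named no gene (0.101% to 0.167% of reads) and were left out. For 86 repeated symbols only the most abundant entry entered, leaving 19129 genes, each with at least 25 reads in all. Limma 3.58.1 (lmFit, eBayes with a trend; R 4.3.3) was fitted over all genes with the label as its only term; tests were two-sided, p-values Benjamini-Hochberg adjusted, and the threshold 0.05. Tested on simulated data for these 19129 genes, the fit found 73.4% of 64 genes given a log2 change of 1, 91.7% of 72 given 2, and 100% of 64 given 4. Calls among 18929 genes left alone numbered 4. The simulated noise was drawn for each gene alone, without the movement that genes shared in these libraries. The shares therefore do not tell which changes the real fit would call. In the real fit Selp differed by -0.90 with a limma adjusted p of 0.9996. Lists are described by counts, means and medians, without a test. Alternatives changed the normalization, the filter on low values, the scale (voom, log2 CPM with priors of 1 and 0.1), the moderation, weights, covariates and the libraries used.

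The genes named are the 10 members, the ligand and co-receptor list, the 2 genes with the smallest p of each other list (no list had a called gene), the 8 closest profiles and Dusp6 and Spry4; others are said to be chosen after their values were seen. The members and lists were chosen with earlier results of these data known. Replicate numbers run from 1 to 4 under both labels, which do not say whether the numbers pair the libraries. Same-numbered libraries deviated together with correlations of -0.333, 0.196, -0.465 and 0.0242, which cannot decide it. The main fit treated the libraries as unpaired. No batch or date was given. The closest pair of libraries, MEKi 1 and control 4, differed by 4.4 times the sampling noise. The next, MEKi 2 and control 1, differed by 5.1 times, and the other pairs by 10.4 to 42.2 times. Figures were drawn with matplotlib 3.10.9.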

Additional observations from a re-analysis of the deposited data

Results flagged for a closer look

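Values of the genes named by the stated rule were screened for a library far from the other 3 of its label. Of 122 sets of 4 libraries, 8 had such a library, and chance alone flags about 1 set in 20. Among the blood endothelial genes, 3 of 20 sets were affected, all under the MEKi label. Tek was 8.14 in MEKi 3, with 7.01 to 7.19 in the other MEKi libraries. Eng was 10.64 in MEKi 3, with 10.37 to 10.38 in the others. Plvap was 9.53 in MEKi 1, with 10.13 to 10.17 in the others. Of the other named genes, Sox7 was 6.57 in MEKi 4 (others 7.90 to 8.16), Nrp1 was 11.75 in MEKi 4 (others 10.56 to 10.69), Cldn4 was 7.32 in MEKi 4 (others 8.91 to 9.20) and Cldn7 was 7.08 in MEKi 4 (others 9.81 to 10.36). Epha4 was 9.69 in control 1, with 9.19 to 9.25 in the other control libraries.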

How the results depend on the processing

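The 10 blood endothelial genes stayed without a call in all 23 alternatives, with a lowest adjusted p of 0.984 (limma). An unadjusted limma p under 0.05 was found in some of them. It was 0.0090 for Pecam1 with the ERK output covariate, 0.044 for Pecam1 without control 4 and 0.032 for Tek without MEKi 3. Over all genes, 1 gene was called. The number was 0 for the 75% of genes with the highest mean, log2(CPM + 1) and the acinar, pan-endothelial and ERK output covariates, 2 for log2(CPM + 0.1) and 4 without control 2 and 3. It ran from 0 to 2 when 1 library was left out. The replicate block called 0 genes and changed no call of the 10 genes. With it their median SE was 0.25, against 0.29 in the main fit and 0.18 with either the ERK output or the pan-endothelial covariate. Whether the numbers pair the libraries is not known. The mean difference of the 10 genes was -0.18, and 0.0022 with the pan-endothelial covariate, where a small value was largely built in. Directions that turned are given as log2 differences, and the cause was not tested. With array weights they were -0.037 for Dusp6, -0.039 for Spry4, -0.033 for Tie1 and -0.045 for Nrp1. With voom on recovered reads they were -0.021 for Tie1 and -0.12 for Cldn5, and with quantile normalization -0.0023 for Nrp2. With the acinar covariate they were -0.034 for Tie1, 0.041 for Eng, -0.25 for Cldn5, 0.083 for Vegfd and 0.12 for Angpt2. With the pan-endothelial covariate they were 0.055 for Cdh5 and 0.043 for Eng, and with the ERK output covariate -0.015 for Tie1 and -0.0046 for Nrp2. Without control 2 and 3 they were 0.14 for Eng, 0.11 for Vegfd, 0.029 for Angpt1 and 0.0056 for Angpt2. The last 2 alternatives were chosen after seeing the data. Leaving out 1 library turned the difference or moved it by over 1.5 times for 45 of the 53 genes named with a difference by the stated rule, among them all 10 blood endothelial genes; Tek ran from -0.61 without MEKi 3 to -0.22 without control 1. Where the direction turned, the differences ran from -0.16 to 1.06 for Dusp6, -0.22 to 0.81 for Spry4, -0.69 to 0.032 for Cdh5, -0.18 to 0.26 for Tie1, -0.30 to 0.028 for Emcn, -0.18 to 0.11 for Eng, -0.33 to 0.019 for Plvap, -0.22 to 0.44 for Cldn5, -0.46 to 0.00497 for Vegfa, -0.51 to 0.021 for Vegfc, -0.48 to 0.12 for Angpt1, -0.60 to 0.14 for Angpt2, -0.18 to 0.045 for Angpt4, -0.17 to 0.23 for Nrp1, -0.11 to 0.10 for Nrp2, -0.054 to 0.31 for Notch3 and -0.98 to 0.12 for Cldn7. Count models on recovered reads were planned but not run; voom on those reads was. Depth limits Cldn5, Tek, Selp, Car4, Ackr1, Hey2 and the platelet genes, which had few reads. For Tek the difference was -0.56 by voom, against -0.35 in the main fit, and for Hey2 it was 1.06 by voom, against 0.38.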
